A study of Rattus norvegicus with 11 samples.

Results

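Cytosolic ribosomal proteins are the protein parts of the ribosome, the particle on which every cytosolic protein is made. Their genes were taken from a comparison of heart ventricle in old and young rats. A gene was a member when a probe set, the group of short probes that gives 1 reading on an array, carried a single symbol made of Rpl or Rps and a digit, Rplp and a digit, or Rpsa. The S6 kinases, whose symbols begin Rps6k, were left out. This gave 64 probe sets for 44 genes, of 4736 genes with a single symbol on the array, and each gene was read by its brightest probe set. Of the 44 genes, 30 belonged to the large and 14 to the small subunit. The study used total RNA of heart ventricle from Fischer-344 rats, a strain common in ageing work, with 6 arrays in the old group (22 months) and 5 in the young group (4 months). The labels do not tie arrays to separate animals. The p-values therefore measure only how far these samples spread, and that spread may be technical.

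Each ribosome holds a small subunit, which reads the messenger RNA, and a large subunit, which joins the amino acids. The proteins of both are made in matched amounts, and a protein that finds no place in a subunit is quickly degraded. Messengers of ribosomal proteins begin with a tract of pyrimidines (C and T bases), through which the mTOR kinase controls how fast they are translated. Heart and skeletal muscle also use Rpl3l, a paralogue of Rpl3 found mainly in striated muscle.

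Many but not all of the genes have a pyrimidine run near the annotated start. The 9 windows printed next, with and without such a run, belong to members described below: those with large differences in either direction, the stalk protein Rplp0, the kinase substrate Rps6 and the pair Rpl3 and Rpl3l. Each window runs from 30 bases before to 20 bases after the annotated start, 5′ to 3′, from RefSeq with build GRCr8, and capitals mark the longest run of C and T.
Rps23: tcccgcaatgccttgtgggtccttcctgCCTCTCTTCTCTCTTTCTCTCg
Rpl4: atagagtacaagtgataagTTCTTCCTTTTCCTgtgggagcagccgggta
Rps15: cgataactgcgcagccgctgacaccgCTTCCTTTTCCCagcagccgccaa
Rpl39: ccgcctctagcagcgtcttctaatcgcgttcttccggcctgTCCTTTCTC
Rpl41: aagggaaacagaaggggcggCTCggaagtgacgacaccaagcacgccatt
Rps6: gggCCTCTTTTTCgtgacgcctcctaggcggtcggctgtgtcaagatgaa
Rplp0: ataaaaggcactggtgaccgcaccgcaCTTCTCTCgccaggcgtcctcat
Rpl3: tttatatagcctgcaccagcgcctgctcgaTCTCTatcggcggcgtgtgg
Rpl3l: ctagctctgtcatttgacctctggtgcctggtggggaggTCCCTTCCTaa

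Rps23 lies on chr2:23814487-23814536, plus strand, and its run of 21 pyrimidines was the longest of the 9. The run of Rpl4 (chr8:73566447-73566496, plus strand) holds 14 and that of Rps15 (chr7:10068096-10068145, minus strand) 12. Rpl39 (chrX:121195877-121195926, minus strand) has 9 and Rplp0 (chr12:46718371-46718420, minus strand) 8. In Rpl3 (chr7:113507971-113508020, minus strand) the longest run has 5 bases and begins at the annotated start itself. Rpl41 (chr7:1563478-1563527, minus strand) has no run above 3, and Rps6 (chr5:106420521-106420570, minus strand) has a run of 10 that begins 27 bases before the start. In Rpl3l (chr10:14258416-14258465, plus strand) a run of 9 begins 10 bases into the transcript. A promoter sequence was matched by gene number for 37 of the 44 members. A run of at least 7 pyrimidines on the transcribed strand of this window was present in 28 of the 37 (75.7%), absent in the other 9, and present in 29.7% of 27457 promoters of all genes, with 20 of 27 in the large and 8 of 10 in the small subunit. Over the whole 300 bases and on both strands, the ETS family core CCGGAAG was found in 9 members (24.3%, against 9.22% of all promoters) and the YY1 core AAGATGG in 8 (21.6%, against 7.3%). The TATA box letters TATAAA were found in 5 members (13.5%, against 14.3%). None of these letter strings contains another, and an annotated start can lie some bases away from the one used in heart.

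Each difference is the old mean minus the young mean of log2 values, and its standard error (SE) is that of limma, a linear model fitted to all probe sets at once. Values below are log2 intensities, raised to a floor of 5.57 where lower. A gene was called when its limma p, adjusted over all 5244 probe sets tested, was under 0.05. Of the 44 genes, 42 were bright enough to be tested. The other two, Rplp1l3 and the pseudogene symbol Rps2-ps1, had mean levels of 6.62 and 6.77, under the limit of 6.9996.

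No ribosomal protein gene was called between old and young: 0 of 42 passed, with a smallest limma adjusted p of 0.560, beside 0% of all probe sets tested. Of the 42 genes, 28 were higher and 14 lower in old (66.7% higher, against 49.7% of 3206 tested genes of all kinds). The median difference was 0.11, against -0.01 over all tested genes. In the large subunit 20 of 29 genes were higher with a median of 0.11, and in the small subunit 8 of 13 with a median of 0.08. At an unadjusted limma p under 0.05 there was 1 gene higher in old, Rpl3, and 0 lower, where 3.18% and 3.68% of all tested genes reached that level. The old and young arrays overlapped for all 42 genes, while 0.593% of all tested genes had every old array above and 0.405% every old array below the young ones. In these bulk samples, fewer cells of a type and less RNA per cell cannot be told apart.

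The direction of the median was not stable. It turned to -0.01 when arrays were centred on their medians, with 20 genes higher and 22 lower, and to -0.05 without old replicates 3 and 4, the arrays with a high GAPDH ratio. Median centring shifts the difference of every gene by the same amount, and it moved the median of all tested genes to -0.12. Relative to all genes the members stood at 0.12 under both scalings, which could not have come out otherwise. Quantile normalization gave 0.28 for the members against -0.10 for all tested genes.

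The intervals show how much change the data leave room for. For 26 of the 42 genes the 95% interval of the difference lay wholly between -1 and 1, that is within a 2-fold change in either direction, as it did for 441 of the 3206 tested genes. For 32 of the 42 the difference was smaller than its own standard error, as it was for 1964 of the 3206. The median standard error was 0.34 for members and 0.54 for all tested genes. Most members were brighter than the tested probe sets at large, whose median was 8.47 to 9.02 on the arrays. The part of brightness in these smaller standard errors was not tested. Rpl3 alone of the 42 differed by more than 1, as did 366 of the 3206.

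**Figure D1:**
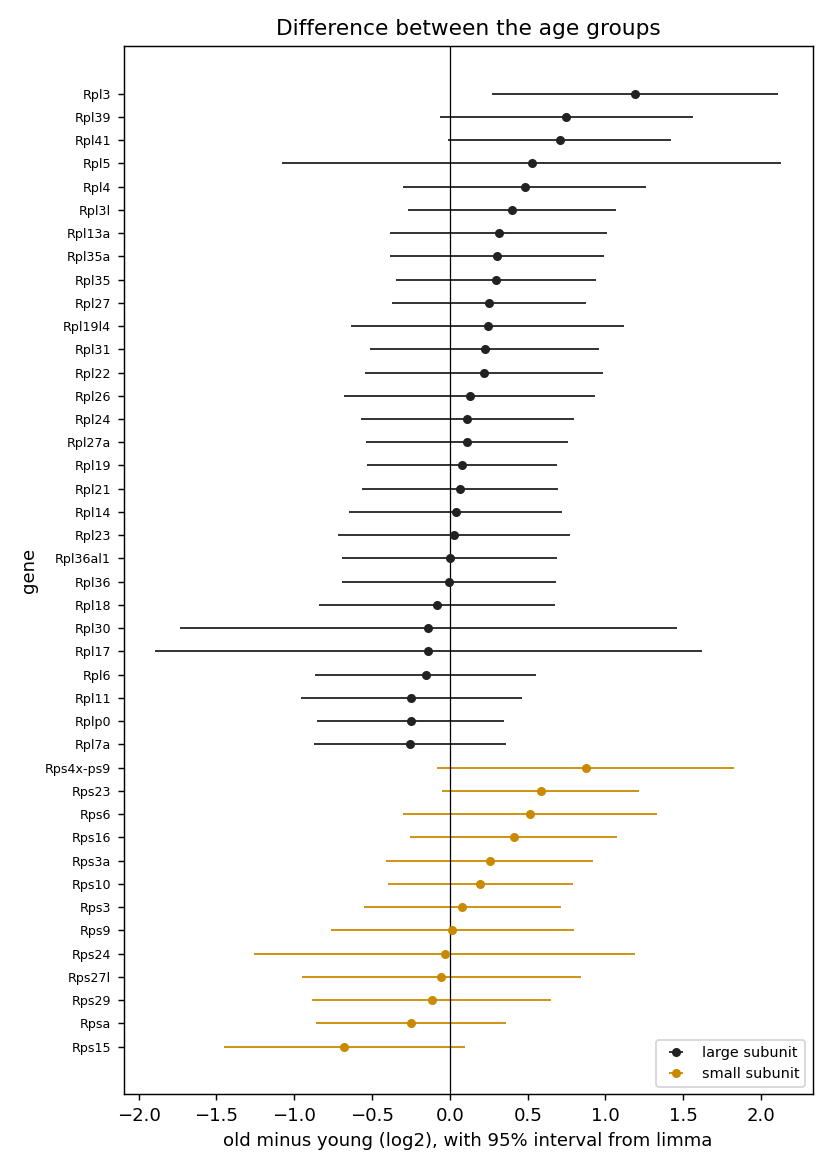
Old minus young difference on the log2 scale (x axis) for each of the 42 tested ribosomal protein genes (y axis), with the 95% interval from limma as bars, black for the large and ochre for the small subunit. Most genes lie near 0, with Rpl3 at 1.19 at one end and Rps15 at -0.68 at the other.

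The members varied together from array to array. Each gene was set against its own mean over the 11 arrays, and the median of these deviations over the 42 genes was taken on each array. It was 0.30 in old replicate 1, 0.33 in replicate 2, 0.30 in replicate 3, 0.37 in replicate 4, 0.01 in replicate 5 and -0.79 in replicate 6. In the young arrays it was -0.04, -0.51, -0.01, 0.25 and -0.08 for replicates 1 to 5. Old replicate 6 was thus the lowest array and young replicate 2 the next, and the groups overlapped. The group means of this median differed by 0.16, less than its SD of 0.45 among the old arrays or of 0.28 among the young ones. In old replicate 6 only 3 of 42 genes stood above their own mean, and in young replicate 2 only 8 of 42. In old replicates 1 to 4, between 31 and 34 of 42 did, as did 33 in young replicate 4.

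The median over all tested genes did not show this, lying between 0.00 and 0.14 on the old arrays and between -0.07 and 0.16 on the young. It spans genes of all levels on arrays scaled to a common mean. It therefore cannot show whether other bright genes moved as the members did. Old replicate 6 also had the lowest 98th percentile of linear intensity, 4993.5 against 7039.5 to 9285.2 in the other arrays, and young replicate 2 had 7200.7. Old replicate 5, whose member median of 0.01 was not low, had 7039.5, the second lowest of all. The part of this compression at the bright end in the low member values was not tested. Without old replicate 6 the median difference of the members became 0.28, with 34 of 42 higher, and 0 were called. When the array's own member median was taken off, the median SD of a gene over the 11 arrays was 0.47 instead of 0.56, and the SD was smaller for 36 of 42 genes. Part of this fall is built in, since that median was taken from the same 42 genes.

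**Figure D2:**
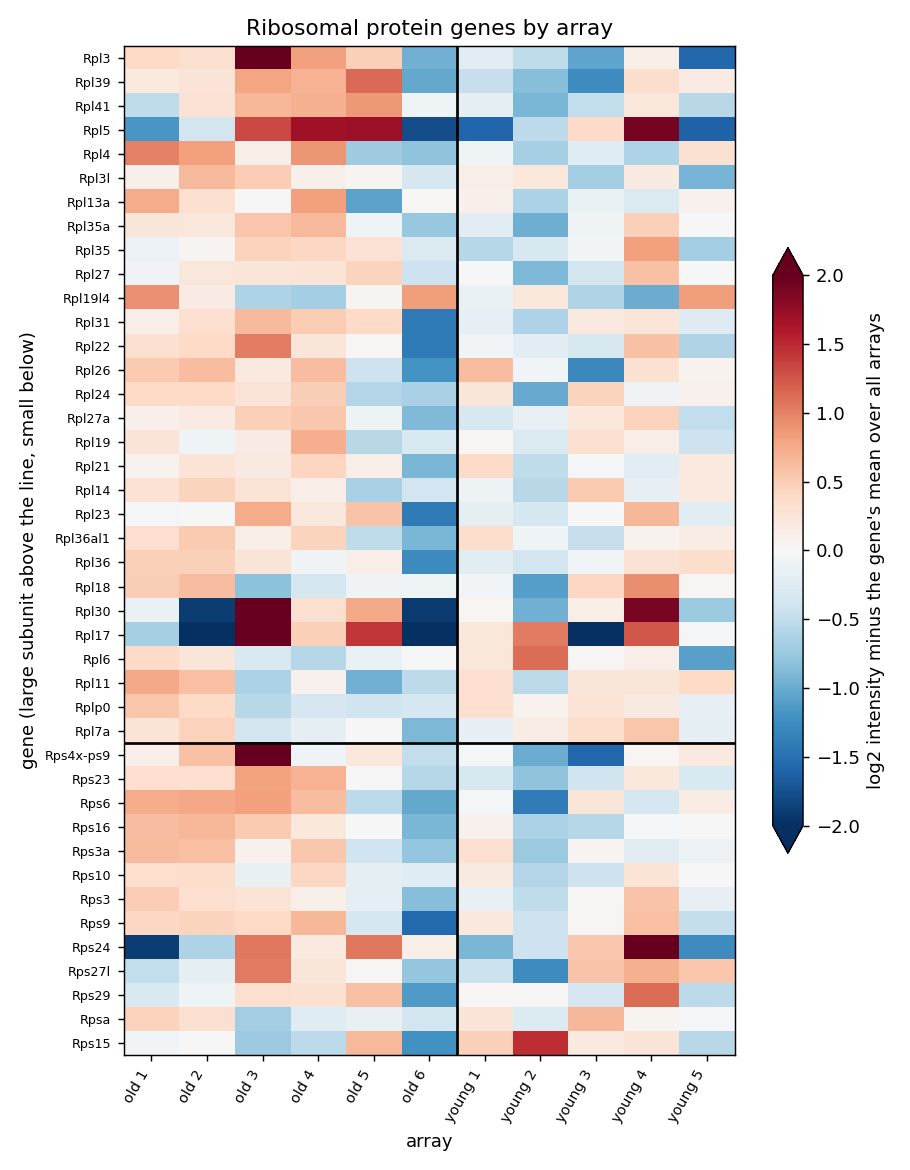
Log2 intensity of each tested member (rows, large subunit above the line) on each array (columns, old left of the line) minus the gene's mean over 11 arrays, red above and blue below. In the column of old replicate 6 only 3 of 42 genes are red, and in that of young replicate 2 only 8.

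Large and small subunit genes moved in step. On old replicate 6 the large subunit median was -0.80 and the small -0.78. On young replicate 2 they were -0.51 and -0.59, and on old replicate 4, 0.43 and 0.24. The large minus small difference lay between -0.15 and 0.19 on the old arrays, and averaged -0.01 ± 0.11 (SD, n = 6). It lay between -0.09 and 0.08 on the young arrays and averaged -0.01 ± 0.08 (SD, n = 5). The balance of the subunits therefore differed between the ages by less than its spread between arrays. Each subunit's own array median, by contrast, had an SD of 0.46 (large) and 0.45 (small) among the 6 old arrays and of 0.27 and 0.32 among the 5 young ones.

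**Figure D3:**
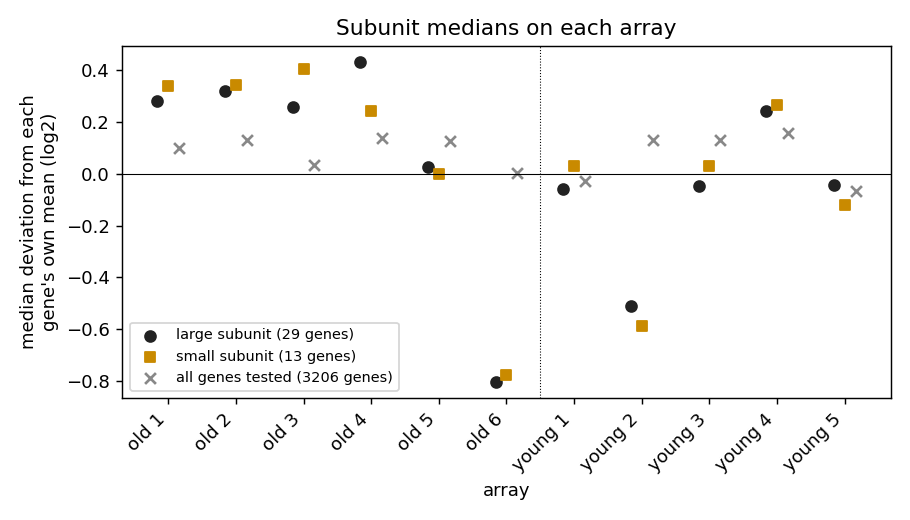
Median deviation from each gene's own mean (y axis, log2) on each array (x axis) for 29 large subunit genes (circles), 13 small subunit genes (squares) and 3206 tested genes (crosses). Circles and squares lie close together on every array, lowest on old replicate 6 at -0.80 and -0.78, while the crosses stay near 0.

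The 11 arrays were split at the widest gap (1.76) in the mean log2 signal of the bacterial control transcripts added to each sample. Old replicates 3 to 6 and young replicate 4 formed the bright class and the other 6 arrays the dim class. The mean was 9.55 to 10.20 in the dim arrays. It was 11.97 in young replicate 4, 13.19 to 13.54 in old replicates 3 to 5 and 15.24 in old replicate 6, so the bright class was itself widely spread. Within the dim class (old replicates 1 and 2 against 4 young arrays) 37 of 42 members were higher in old, with a median of 0.45 against 0.08 for all tested genes. Within the bright class, which holds a single young array, 30 of 42 were lower, with a median of -0.40 against -0.18. The direction of the members therefore turned between the classes, and 0 members were called in either. With the class as a block in the fit the median was 0.15, and 0 members were called.

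The core large subunit protein Rpl3, which lines the peptidyl transferase centre, had the largest difference of all members. The probe set rc_AA892367_i_at read 11.77, 11.69, 13.54, 12.19, 11.85 and 10.40 in old replicates 1 to 6 and 11.14, 10.85, 10.30, 11.48 and 9.79 in young replicates 1 to 5. Of the old arrays, 5 lay above every young one, and old replicate 6 fell among the young. The difference was 1.19 ± 0.44 (SE), with an unadjusted p of 0.0136 and a limma adjusted p of 0.560. The second Rpl3 probe set, X62166cds_s_at, differed by 0.96 ± 0.34 (SE; limma adjusted p = 0.560), and all 6 old arrays lay above its young mean. Its old readings were 11.63, 11.26, 11.54 and 11.32 in replicates 1 to 4 and 10.28 and 10.30 in replicates 5 and 6, against 9.59 to 10.51 in young. Relative to the member median of each array Rpl3 differed by 1.03. It stayed above 0 under all 25 alternatives tried, from 0.51 in the bright class alone to 1.49 without old replicate 6. Those that changed the floor, the filter or the variance model left the Rpl3 difference at 1.19, so they could not turn its direction. It was 0.71 ± 0.41 (SE) without old replicates 3 and 4, and the limma adjusted p never went below 0.162.

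The muscle paralogue Rpl3l had a smaller difference, and its probe sets pointed in opposite directions. Its brighter probe set, rc_AA891037_g_at, read 10.96, 11.51, 11.37, 10.96, 10.92 and 10.53 in old and 10.97, 11.08, 10.18, 11.04 and 9.93 in young. These ranges overlapped. The means were apart by 0.40 ± 0.32 (SE), which did not pass (limma adjusted p = 0.792), and the other probe set differed by -0.23 ± 0.40 (SE). The Rpl3 value minus the Rpl3l value on the same array ran from -0.12 to 2.17 in old, averaging 0.86 ± 0.81 (SD, n = 6). In young it ran from -0.23 to 0.44 and averaged 0.07 ± 0.26 (SD, n = 5). Old replicate 3 held the 2.17, and without it the shift between ages was 0.53 instead of 0.79. Without old replicates 3 and 4 it was 0.37. This pair was set side by side after the values were seen, so the shift has no test.

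Another pair of muscle and general paralogues belongs to the same pathway. Eef1a1 is the general form of the elongation factor that brings amino acids to the ribosome, and Eef1a2 is the form that replaces it in adult muscle and neurons. Eef1a2 (M62752_at) read 10.86, 10.88, 10.30, 10.80, 11.15 and 12.02 in old and 12.34, 11.84, 12.66, 11.27 and 12.49 in young. Only old replicate 6 reached into the young range. The difference was -1.12 ± 0.34 (SE), with an unadjusted p of 0.0039 and a limma adjusted p of 0.537. It was -1.46 within the dim class and -0.20 within the bright class. Eef1a1 (M81088_at) went the other way, at 12.11, 11.85, 11.64, 11.86, 10.08 and 10.65 in old against 10.77, 9.93, 11.20, 9.73 and 11.05 in young. Its difference was 0.83 ± 0.40 (SE; limma adjusted p = 0.661) by this brightest probe set. By the mean of all tested probe sets of Eef1a1 it was 0.43. On M81088_at the 4 first old arrays lay above all young ones, and old replicates 5 and 6 lay among them. The Eef1a1 value of that probe set minus the Eef1a2 value averaged 0.37 ± 1.24 (SD, n = 6) on the old arrays. On the young arrays it averaged -1.58 ± 0.19 (SD, n = 5). All 6 old arrays, at -1.37 or higher, stood above all 5 young ones, at -1.44 or lower. How often other pairs of genes separate in this way was not worked out. The shift of 1.95 was 2.71 in the dim and 1.52 in the bright class, and this pair too was set side by side after the values were seen and has no test.

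**Figure D4:**
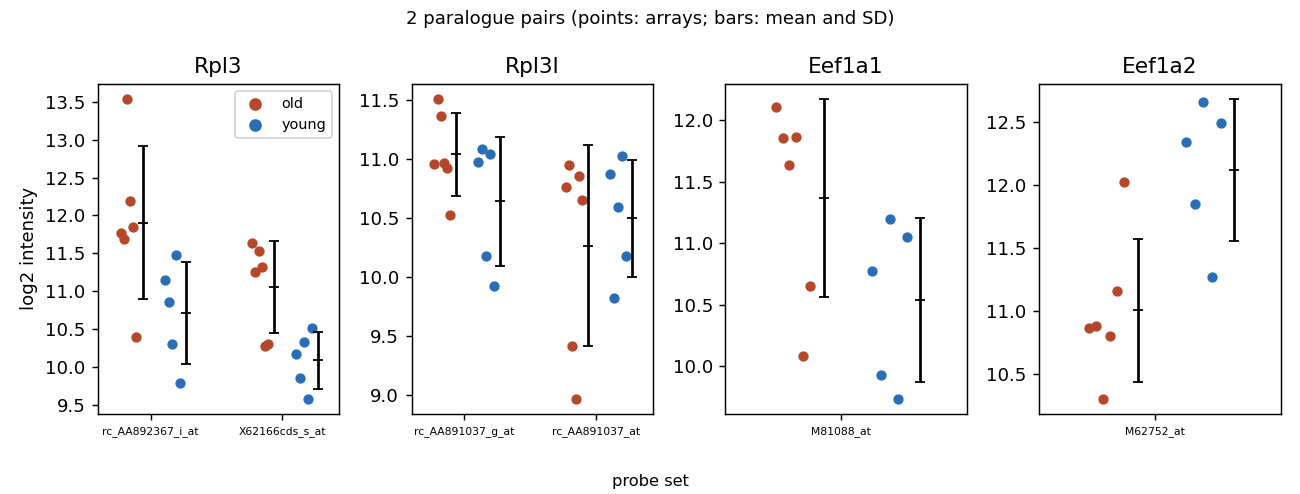
Log2 intensity (y axis) of Rpl3, Rpl3l, Eef1a1 and Eef1a2 by probe set (x axis), each point an array, old in red and young in blue, with the group mean and SD beside the points. Both Rpl3 probe sets have higher old means (differences of 1.19 and 0.96), those of Rpl3l differ by 0.40 and -0.23, and Eef1a2 differs by -1.12. Eef1a1 and Eef1a2 are shown by their brightest probe set alone.

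Among the other large subunit proteins, the small basic proteins Rpl39 and Rpl41 came next. Rpl39, which lines the exit tunnel of the ribosome, read 11.46, 11.53, 12.06, 11.96, 12.41 and 10.24 in old and 10.81, 10.42, 10.02, 11.62 and 11.44 in young. Its difference was 0.75 ± 0.39 (SE; limma adjusted p = 0.661), with 0.82 in the dim class and 0.046 in the bright class. Rpl41, the shortest ribosomal protein, read 9.76, 10.56, 10.93, 10.99, 11.14 and 10.19 in old and 10.08, 9.36, 9.79, 10.50 and 9.72 in young. The means were apart by 0.71 ± 0.34 (SE), with a limma adjusted p of 0.661. For both genes 5 of 6 old arrays lay above the young mean, and both ranges overlapped. Rpl4, a neighbour of the exit tunnel, differed by 0.48 ± 0.37 (SE).

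Rpl5 and Rpl11, which together with a small ribosomal RNA bind and inhibit Mdm2 when ribosome assembly fails, gave no common direction. Rpl11 differed by -0.25 ± 0.34 (SE) and Rpl5 by 0.52 ± 0.77 (SE). Rpl5 read 9.12, 9.50 and 9.53 in old replicates 3 to 5 and 9.72 in young replicate 4, and 8.19 or less in the other 7 arrays. Those 4 arrays are all of the bright class, while the fifth bright array, old replicate 6, had the lowest reading of all at 6.04.

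The stalk protein Rplp0, the base to which elongation factors dock through the acidic proteins, differed by -0.25 ± 0.29 (SE). It read 14.32 and 14.16 in old replicates 1 and 2, 13.21 to 13.44 in the other old arrays and 13.60 to 14.11 in young. Rpl7a differed by -0.26 ± 0.30, Rpl6 by -0.15 ± 0.34 and Rpl18 by -0.08 ± 0.36 (SE). Rpl13a and Rpl22 differed by 0.31 ± 0.33 and 0.22 ± 0.37 (SE), Rpl13a being also known as a part of an inflammation-induced translation silencing complex and Rpl22 as a protein needed in T cell development. All these values were smaller than their standard errors. The remaining large subunit genes differed by between -0.14 and 0.30.

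In the small subunit, Rps23, a protein of the decoding centre, had the largest difference above 0 of the genes that are not listed as pseudogenes. It read 12.59, 12.59, 13.05, 12.95, 12.25 and 11.68 in old and 11.94, 11.46, 11.86, 12.46 and 11.96 in young. Old replicates 5 and 6 lay below young replicate 4, and the difference between the ages was 0.58 ± 0.30 (SE; limma adjusted p = 0.661). It was 0.79 in the dim class and 0.021 in the bright class. Relative to the member median of each array, Rps23 ran from -0.01 to 0.50 in old and from -0.39 to -0.04 in young, singled out after its values were seen. On that scale it was the 1 gene of 42 without overlap, where 0.156% of all tested genes lay wholly above and 0.686% wholly below in old. The median taken off comes from the members themselves, so these shares over all genes are no like background for a member. Rps6, the classic substrate of the S6 kinases, differed by 0.51 ± 0.39 (SE), and its other probe set by 0.04 ± 0.39 (SE). Old replicates 1 to 4 read between 12.61 and 12.80 for Rps6, replicates 5 and 6 read 11.46 and 10.96, and young replicate 2 was the lowest of all at 10.58. Rps16 differed by 0.41 ± 0.32 and Rps3a by 0.25 ± 0.32 (SE). The symbol Rps4x-ps9, which RefSeq lists as a pseudogene and whose probe set may read the parent gene, differed by 0.87 ± 0.46 (SE; limma adjusted p = 0.661), with old replicate 3 at 11.84 and all other arrays at 10.37 or less.

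Rps15, a protein of the small subunit head, lay at the other end. Its brightest probe set, rc_AA892895_r_at, read 12.58, 12.63, 11.91, 12.11, 13.28 and 11.42 in old and 13.11, 14.11, 12.82, 12.90 and 12.08 in young. The difference was -0.68 ± 0.37 (SE; limma adjusted p = 0.677), and 5 of 6 old arrays lay below the young mean. The other 2 probe sets of Rps15 differed by 0.02 ± 0.28 and 0.27 ± 0.38 (SE), so the lower value rests on a single probe set, whose young replicate 2 reading of 14.11 was its highest. Rpsa, which doubles as the laminin receptor precursor, differed by -0.25 ± 0.29 (SE). Rps29 differed by -0.12 ± 0.37, Rps27l, a p53-responsive paralogue of Rps27, by -0.06 ± 0.43, and Rps24 by -0.03 ± 0.59 (SE) before the technical class was taken into account.

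Rps24 differed between the technical classes. It read 10.06 to 11.0 in the bright old replicates 3 to 6, 12.07 in the bright young replicate 4, and 8.04 to 10.47 in the 6 dim arrays. With age in the same fit, the bright arrays were higher by 2.16 ± 0.45 (SE; limma adjusted p = 0.0199). The old minus young difference of Rps24 in that fit was -1.04, and it was -0.75 within the dim and -1.52 within the bright class, none of them called. Read by the brightest probe sets, 1 of 42 members passed for the class, where 0.125% of all tested genes passed as higher and 0.655% as lower in bright arrays. Rpl5, Rpl17 and Rpl30 were also higher there, by 1.97 ± 0.75, 1.87 ± 0.86 and 1.75 ± 0.77 (SE), and did not pass (limma adjusted p = 0.244, 0.353 and 0.330). Rpl4 went the other way, at -0.82 ± 0.38 (SE; limma adjusted p = 0.353). In either direction, 5 of 42 members had an unadjusted limma p under 0.05 for the class, beside 354 of 3206 tested genes. Of the 42 members 20 were higher in bright arrays, and the median class difference was -0.07. A dimmer probe set of Rpl21, rc_AA849648_at, was higher in bright arrays by 1.95 ± 0.46 (SE; limma adjusted p = 0.0466) and passed. Rpl17 and Rpl30 were the tested members with an array at the floor. Their age differences of -0.14 ± 0.84 and -0.14 ± 0.76 (SE) say little.

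Several genes were read by more than 1 probe set. Of the 16 genes with several tested probe sets, 10 had all of them in the same direction and 6 did not, namely Rpl11, Rpl27, Rpl35, Rpl3l, Rps15 and Rps29. The spread between probe sets of a gene was widest for Rps15 (0.95) and Rpl21 (0.79). For Rpl21 the brightest probe set, M27905_at, differed by 0.06 ± 0.30 (SE), while X15216cds_s_at differed by 0.85 ± 0.30 (SE; unadjusted p = 0.0113, limma adjusted p = 0.560). The latter read 11.32, 11.10, 11.41, 11.43, 11.07 and 10.56 in old and 10.16, 9.76, 10.74, 10.13 and 10.71 in young, and it was named after its values were seen. Probe sets whose names end in s_at, i_at or r_at can read several transcripts or hold a reduced set of probes. Ribosomal protein genes have many near-identical copies in the genome, so each of these values may mix a gene with its copies. A further 38 probe sets carried several ribosomal protein symbols and stand for no gene. Of these, 37 were tested, 27 were higher and 10 lower in old with a median of 0.19, and 0 passed (smallest limma adjusted p = 0.683).

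Genes that act with the ribosome gave no called member in any list (smallest limma adjusted p = 0.537). Of the initiation factors, 11 of 17 tested genes were higher in old, with a median of 0.14. Eif2b2, a subunit of the exchange factor that recharges eIF2, differed by -1.21 ± 0.44 (SE; limma adjusted p = 0.560), with old replicates 3 to 6, all of the bright class, between 8.41 and 9.74. The other arrays read 10.48 or more, among them the fifth bright array, young replicate 4, at 11.07. Eif2b3, another subunit, differed by 0.53 ± 0.39, Eif5 by 0.50 ± 0.46, and the haem-regulated eIF2 kinase Eif2ak1 by -0.96 ± 0.63 (SE). The cap-binding protein Eif4e and its inhibitor Eif4ebp1 differed by 0.41 ± 0.63 and 0.14 ± 0.34 (SE). Of the elongation factors 3 of 6 were higher. Besides the Eef1a pair, Eef2 differed by -0.13 ± 0.27 and its kinase Eef2k by 0.48 ± 0.47 (SE). These are values of the brightest probe sets. Averaged over all tested probe sets of the gene, Eef2 differed by -1.07 and Eef2k by 0.15. On that average Eif2b3 differed by 0.026 and Eif5 by 0.11, so these values depend on the probe set.

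Among genes of mTOR and S6 kinase signalling, which controls the translation of ribosomal protein messengers, 4 of 10 tested were higher and the median was -0.32. Rictor, the defining subunit of the second mTOR complex, differed by 1.31 ± 0.55 (SE; unadjusted p = 0.0264, limma adjusted p = 0.572), with all 6 old arrays above the young mean. Mlst8, shared by both mTOR complexes, differed by 1.15 ± 0.61, Akt2 by -1.06 ± 0.62 and Tsc2, an inhibitor of mTOR signalling, by -0.86 ± 0.58 (SE). The S6 kinase Rps6kb1 differed by -0.32 ± 0.61 (SE).

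Of the genes of ribosome assembly and ribosomal RNA synthesis, 5 of 8 tested were higher, with a median of 0.19. Ubtf, which activates RNA polymerase I, differed by -1.18 ± 0.71, Ncl (nucleolin) by -0.35 ± 0.44, Dkc1 by 0.52 ± 0.61 and Gnl3 by 0.42 ± 0.43 (SE). Mitochondrial ribosomal proteins, which serve the separate ribosomes of mitochondria, were higher in 5 of 14 tested genes, with a median of -0.08. Mrpl45 differed by -1.23 ± 0.51 (SE; limma adjusted p = 0.572), and all 6 old arrays lay below its young mean. Mrpl52 differed by -1.49 ± 0.67, Mrpl44 by 0.68 ± 0.50 and Mrps11 by 0.53 ± 0.46 (SE). Rack1, a scaffold protein of the small subunit whose symbol lies outside the naming rule, differed by 0.45 ± 0.31 (SE).

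The ventricle label was checked against its markers, of which 10 of 11 were measured. Their mean log2 intensity lay between 14.05 and 14.52 on the old and between 14.47 and 14.95 on the young arrays. Atrial markers (3 of 4 measured) averaged 10.61 to 13.94 in old and 9.04 to 12.69 in young, smooth muscle markers (4 of 4) 7.13 to 10.88 and 7.34 to 9.27, and fibroblast markers (5 of 5) 10.92 to 12.32 and 11.11 to 12.07. Endothelial markers (3 of 5) averaged 5.79 to 7.80 and 7.24 to 8.44, with Vwf at the floor on 8 arrays. Macrophage markers (3 of 5) averaged 8.63 to 9.14 and 7.95 to 8.80, lymphocyte markers (4 of 5) 8.52 to 9.47 and 7.75 to 9.42, fat markers (3 of 4) 7.33 to 9.81 and 7.20 to 8.28, blood markers (2 of 4) 10.21 to 14.52 and 9.24 to 13.46, and skeletal muscle markers (4 of 4) 9.52 to 10.37 and 9.47 to 10.30. Among the skeletal muscle markers, Ckm, with a mean of 14.34, is also in the ventricular list, and Tnni2 lay at the floor on 9 arrays. Acta1 and Tnnt3 averaged 11.57 and 8.09. The part of the makeup of the samples in the member values was not tested. Loss of RNA 5′ ends shows in a high 3′ to 5′ signal ratio of the GAPDH control probe sets. On the log2 scale that ratio stood at 3.39 in old replicate 3 and at 4.09 in old replicate 4, against 0.07 to 0.77 elsewhere.

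**Figure D5:**
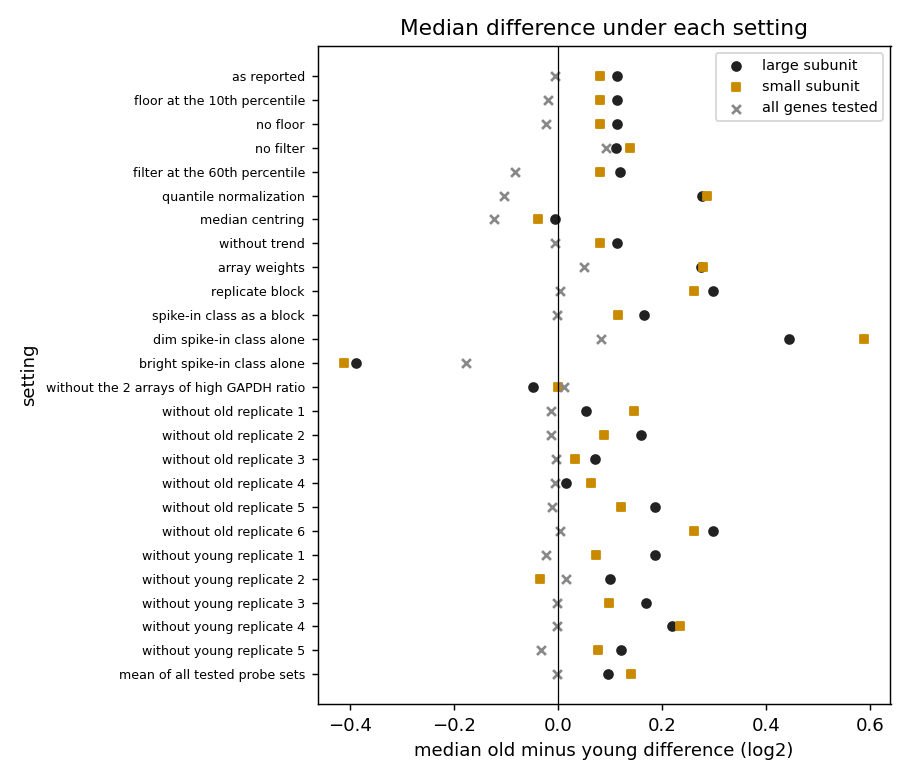
Median old minus young difference (x axis, log2) of large subunit genes (circles), small subunit genes (squares) and all tested genes (crosses) under each way of processing the data or choosing the arrays (y axis). The subunit medians lie close together in most settings, from 0.44 and 0.59 in the dim class alone to -0.39 and -0.41 in the bright class alone.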

How the data were processed

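The deposited table holds 1 linear intensity per probe set and array, for 8799 probe sets on 11 Affymetrix rat arrays. How the authors computed and background-corrected each intensity is not given in the sources used here. Leaving out the lowest and highest 2% of probe sets, array means were 499.63 to 499.99, which shows per-array scaling, so differences are relative to other transcripts. A floor at the 20th percentile (47.4) was applied before taking log2. The 59 control probe sets and those with a mean under the 40th percentile were left out, which kept 5244. The age groups were fitted in limma (version 3.58.1, R version 4.3.3; eBayes with trend, Benjamini-Hochberg over all tested probe sets). The members and lists were chosen with earlier results of these data known.

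Symbols came from GEO's platform annotation; 43 of 44 member genes were found by number in RefSeq (GRCr8), and 2 of them are pseudogenes there. Named genes were up to 5 per subunit and direction with the smallest p, a fixed set of members with known roles, and up to 2 per direction of each pathway list beside fixed ones. Other genes were named after their values were seen. On simulated data with the 5244 probe sets, limma called 8.8% of the differences made 2-fold, 49.2% of those made 4-fold and 85.2% of those made 8-fold, with 25 false of 620 calls. The simulated noise was independent between probe sets, without shifts shared by an array, and the changes were spread over all tested probe sets. These shares therefore do not give the detection rate or the false calls for the members. Arrays with the same replicate number did not deviate together (correlations from -0.25 to 0.25), so no pairing was used. The number of arrays limits the precision. Alternatives covered the floor, filter, normalization, variance model, array weights, a replicate block, the spike-in class, arrays left out and the choice of probe set.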

Additional observations from a re-analysis of the deposited data

Results flagged for a closer look

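Chance flags about 1 in 20 groups of arrays, so single flags carry little weight. The gap between an array and its nearest neighbour was wide for the member median in old replicate 6 (-0.79), for the large subunit median (-0.80) and for the small subunit median (-0.78) of the same array. Those 3 values come from the same array and describe 1 pattern. Among single genes, Rpl11 stood apart in young replicate 2 (11.90), Eif2b3 in old replicate 6 (8.41) and in young replicate 4 (8.05), Gnl3 in young replicate 1 (7.88), Rack1 in young replicate 4 (12.55) and Rps6kb1 in old replicate 6, where it lay at the floor (5.57).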

How the results depend on the processing

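Under all 25 alternatives 0 ribosomal protein genes were called, also at an adjusted p of 0.1. Over all probe sets, 1 was called within the dim class, 5 within the bright class and 0 to 2 when an array was left out (2 without old replicate 5). The members' median moved to -0.40 in the bright class, with -0.39 for the large and -0.41 for the small subunit, and the small subunit median to 0.59 in the dim class. The large minus small value moved to -0.15 in the dim class and ran from -0.093 (without old replicate 1) to 0.13 (without young replicate 2). The fit with the replicate number as a block left out old replicate 6, which has no young array of its number. Its differences were therefore those found without old replicate 6. The members' median was 0.28 and 0 members were called.

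Of 47 named genes 23 kept their direction under every alternative they could be fitted in, 10 of them ribosomal protein genes, but 20 of the 23 (9 of the 10) shrank by over 1.5 times under at least 1 of them. In the bright class Rps23 was 0.021, Rpl39 0.046 and Eef1a2 -0.20, and the mean of all probe sets gave Rps15 -0.13. The cause was not tested. Of the genes that turned, 18 differed by less than their standard error. With array weights the turned values were Rpl11 0.0234, Rpl18 0.22, Rpl6 0.14, Rpl7a 0.14, Rps29 0.011 and Rps6kb1 0.014. With the class as a block they were Rpl11 0.075, Rpl5 -0.39, Rpl6 7.57e-04, Dkc1 -0.14 and Ncl 0.17. In the dim class they were Rpl11 0.57, Rpl18 0.73, Rpl6 0.23, Rpl7a 0.33, Rplp0 0.34, Rps29 0.0045, Rpsa 0.23, Eif2b2 0.055, Eif4ebp1 -0.19, Gnl3 -0.0043, Mrpl52 0.17 and Ncl 0.092. In the bright class they were Rpl22 -0.61, Rpl3l -0.10, Rpl5 -1.17, Rps16 -0.020, Dkc1 -1.0002, Eef2 0.31, Ncl 0.30, Rack1 -0.63 and Tsc2 0.37. Quantile normalization turned Rpl18 to 0.10, Rpl6 to 0.0447 and Eef2 to 0.0425. Without old replicates 3 and 4, Rpl18 was 0.19, Rpl22 -0.046, Rpl5 -0.11 and Rpl6 0.029. The replicate block gave 0.0946 for Rps27l, 0.10 for Rps29 and 0.21 for Rps6kb1, the same values as leaving out old replicate 6 alone. The mean of all probe sets turned Rps29 to 0.10, Dkc1 to -0.15, Eif4ebp1 to -0.23 and Rps6kb1 to 0.53. Leaving out 1 array gave -0.37 to 0.14 for Rpl18, -0.45 to 0.10 for Rpl6, -0.35 to 0.49 for Rps24, -0.38 to 0.11 for Rps27l, -0.26 to 0.15 for Rps29, -0.15 to 0.71 for Eif4e and -0.59 to 0.21 for Rps6kb1.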

Other observations

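The array also carries a control probe set for the rat 5S ribosomal RNA, the small RNA of the large subunit, which belongs to no comparison here. Its log2 intensity was 8.02, 8.80, 9.58, 6.64, 9.75 and 9.15 in old replicates 1 to 6 and 8.92, 10.21, 7.20, 9.94 and 8.17 in young replicates 1 to 5. The groups overlapped.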
